A study of Mus musculus with 13 samples.

Results

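The 34 genes examined here encode the machinery that builds autophagosomes: the ULK kinase complex, the class III phosphatidylinositol 3-kinase (PI3 kinase) complexes, the ATG9, ATG2 and WIPI proteins, the ATG conjugation enzymes and a pair of tethering factors. They were taken from a fixed list of names, without the Atg8 proteins and the autophagy receptors. Each gene was read from its brightest probe set with a single gene symbol. Of the 34 genes, 31 had such a probe set, and 29 were bright enough to enter the test, out of 10411 genes tested and 17097 genes with a single-symbol probe set. Nrbf2, Atg4a and Atg4d had no probe set with their symbol alone and are not analysed here. Rb1cc1 and Atg4c had mean log2 signals of 4.52 and 4.82, under the minimum of 4.90, and are given as values with no test.

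RNA came from the quadriceps of 13 male C57Bl/6 mice, all aged 4 months, and each animal was read on 1 Affymetrix array. There were 3 animals labelled C, 3 SKM-KO, 3 Wt and 4 SKM-Tg. The study's design names ablation and gain of function of DOR, an earlier name of Trp53inp2, in skeletal muscle; SKM-KO was read as the ablation with C as its control and SKM-Tg as the gain of function with Wt as its control, since the labels pair no groups. The allele deleted, the driver of the deletion, the promoter of the transgene and the relation of C to Wt are not given in the sources used here. All animals were fed standard chow and none of the labels names a further treatment or fasting.

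Autophagosomes are double-membraned vesicles that enclose cytoplasm and deliver it to lysosomes. The ULK kinase complex starts the process, and the class III PI3 kinase makes the lipid phosphatidylinositol 3-phosphate on the membrane from which the vesicle grows. WIPI proteins bind this lipid, ATG9 vesicles and the lipid transfer proteins ATG2 supply membrane, and the conjugation enzymes attach Atg8 proteins such as LC3 to it. In skeletal muscle, autophagy clears damaged organelles and contributes to muscle loss in fasting, and Trp53inp2 encodes a protein that binds Atg8 proteins and promotes autophagosome formation. Part of this machinery is known to be controlled after translation, which an RNA signal does not read.

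Promoters are shown for the members with the smallest p-values among those in the promoter table, 2 for each line, because transcription factors of the autophagy and lysosome programme act at such sequences. They come from RefSeq on GRCm38.p6, run 5′ to 3′ along the gene from 250 bases before to 50 bases after its start, and carry in capitals the letters CACGTG, the E-box core bound by TFEB and its relatives.
Atg5: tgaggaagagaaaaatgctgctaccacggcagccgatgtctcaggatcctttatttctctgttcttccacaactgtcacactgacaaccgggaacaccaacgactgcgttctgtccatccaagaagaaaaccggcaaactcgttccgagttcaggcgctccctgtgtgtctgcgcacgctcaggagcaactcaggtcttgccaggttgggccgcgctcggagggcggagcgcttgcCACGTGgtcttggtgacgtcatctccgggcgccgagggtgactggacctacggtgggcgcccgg
Ulk1: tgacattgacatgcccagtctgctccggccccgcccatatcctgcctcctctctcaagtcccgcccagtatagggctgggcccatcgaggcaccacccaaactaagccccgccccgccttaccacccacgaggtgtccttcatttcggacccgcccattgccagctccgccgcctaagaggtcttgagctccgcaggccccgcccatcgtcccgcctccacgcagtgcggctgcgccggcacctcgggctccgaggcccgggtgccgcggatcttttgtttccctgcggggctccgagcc
Atg13: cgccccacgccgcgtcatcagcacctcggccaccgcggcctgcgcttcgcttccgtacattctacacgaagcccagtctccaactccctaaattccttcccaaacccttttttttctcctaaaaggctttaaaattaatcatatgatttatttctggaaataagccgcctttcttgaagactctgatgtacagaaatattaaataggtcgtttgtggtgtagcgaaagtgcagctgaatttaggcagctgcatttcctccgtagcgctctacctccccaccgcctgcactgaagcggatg
The Atg5 sequence lies at chr10:44268089-44268388 on the + strand, that of Ulk1 at chr5:110810032-110810331 on the - strand, and that of Atg13 at chr2:91710543-91710842 on the - strand. Atg5 holds the E-box core once, and Ulk1 and Atg13 do not hold it in this window. Over the 28 members in the table, 6 of 35 promoters (17.1%) held CACGTG, those of Atg3, Atg5, Atg7, Atg14, Nrbf2 and Rubcn, against 2349 of 32851 (7.15%) of all promoters. The letters GTAAACA, a core that FoxO factors bind, were searched on both strands and were in 0 of the 35 and in 3.65% of all promoters. These counts describe letters in a fixed window and were not tested. Pik3c3 and Becn1, the members with the smallest p-value in SKM-KO and in SKM-Tg, were not in the promoter table. Atg5 was picked for both lines.

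Trp53inp2 checked the labels. Its log2 signals were 11.06, 11.19 and 11.15 in C and 8.58, 8.79 and 8.99 in SKM-KO. The groups did not overlap, and SKM-KO lay 5.08-fold lower (log2 difference -2.35, SE 0.14, limma adjusted p 3.76e-06). In Wt they were 11.20, 11.46 and 11.00, and in SKM-Tg 11.11, 11.03, 11.28 and 11.24, a difference of -0.06 (adjusted p 0.886). These groups overlapped, so this probe set gave no check of the SKM-Tg label, and whether it reads the transgene is not given in the sources used here. Among the arrays, Wt 2 stood apart, with a median correlation of 0.917 with the other arrays over the genes tested, against 0.968 for SKM-Tg 3 and 0.977 to 0.99 for the rest. Wt 2 was the highest or lowest of the 13 arrays for 63.1% of the genes tested and for 19 of the 29 members (65.5%). The 3′ minus 5′ log2 signal of the Gapdh and beta-actin control probe sets ran from 0.23 to 0.30 and from -0.31 to -0.15 over all arrays, with Wt 2 inside both ranges at 0.25 and -0.21.

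Animals of the Trp53inp2 ablation line varied less than those of the other line. The median SD of the members within a group was 0.072 in C, 0.074 in SKM-KO, 0.26 in Wt and 0.19 in SKM-Tg, and over all genes tested it was 0.096, 0.098, 0.25 and 0.17. The joint limma fit gives all groups 1 spread per gene, so its standard errors (SE) are wider than the C and SKM-KO arrays alone would give and narrower than the Wt and SKM-Tg arrays alone would give. All 10 skeletal muscle fibre markers lay above the signal minimum, and their summed signal on the log2 scale ran from 15.49 to 15.66 over all arrays. In whole muscle, fewer cells of a type and less RNA per cell cannot be told apart.

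**Figure D1:**
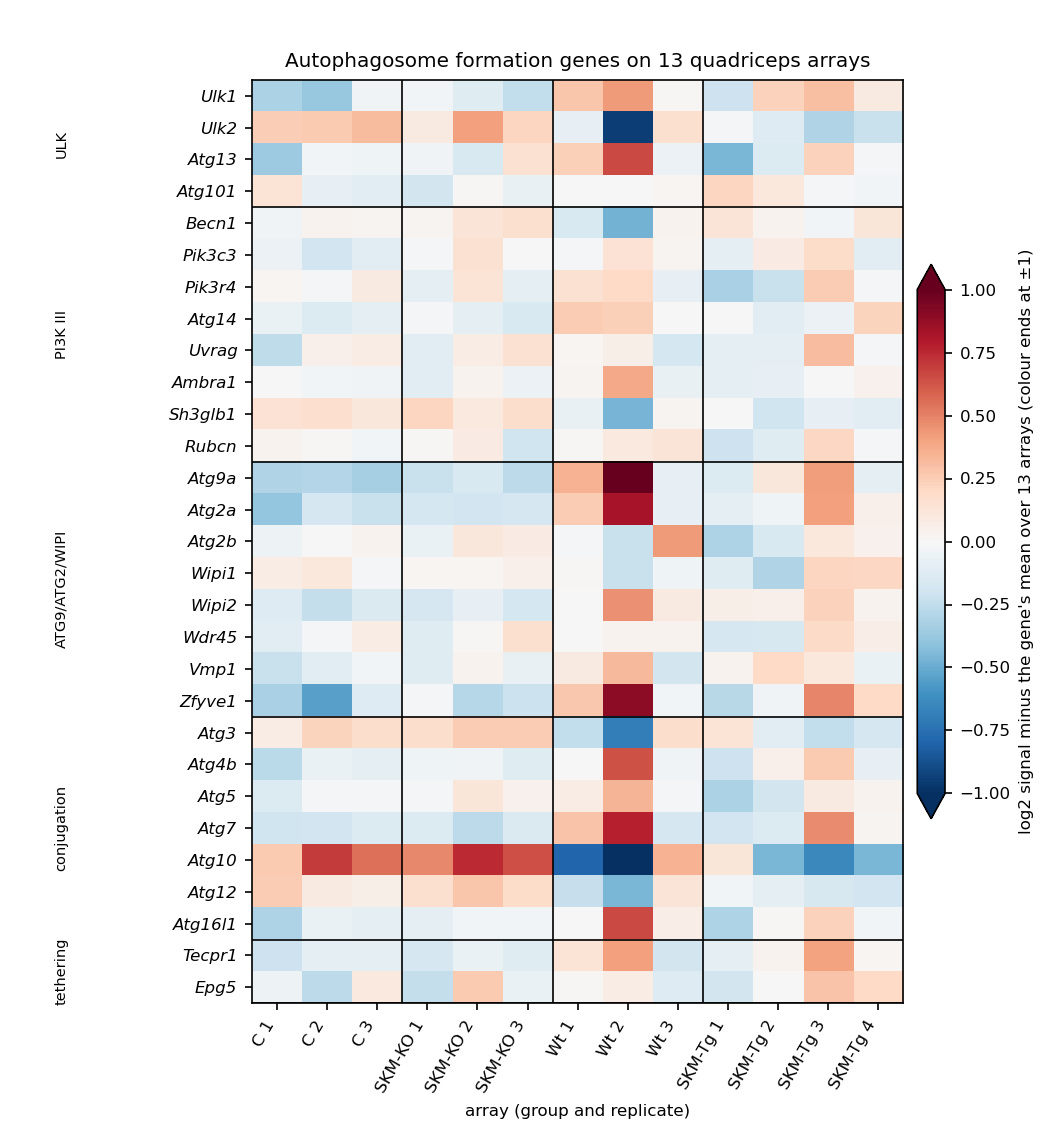
Log2 signal of the 29 tested genes (rows, grouped by complex) on each of the 13 arrays (columns), as the difference from the gene's mean over all arrays; colour ends at ±1. The C and SKM-KO columns are pale for most genes, Atg10 being the main exception, and Wt 2 holds the strongest colours in both directions.

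None of the 29 members passed the test in SKM-KO against C. The differences ran from -0.06 to 0.16 on the log2 scale, so the largest was 1.12-fold. With a limma adjusted p under 0.05, 0 members were called, against 0.00961% of all genes, which is Trp53inp2 alone; at an unadjusted p under 0.05 there were also 0 members, against 0.557% of all genes. The 95% interval lay within 1.5-fold in either direction for 27 of the 29 members, all but Zfyve1 and Atg10, and for all 29 when SKM-KO and C were fitted alone. There were 22 members above 0 and 7 below, with a median of 0.070 beside 0.0077 for all genes tested, of which 54% lay above 0 and 46% below. Without C 1 the median of the members was 0.018, with 20 above 0 and 9 below.

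No member passed the test in SKM-Tg against Wt in the fit of all arrays with equal weight. Of the 29 members, 19 lay below 0 and 10 above, where 62.2% of all genes lay below 0 and 37.8% above, and the median was -0.09 beside -0.05 for all genes. Limma called 0 members at an adjusted p under 0.05, against 0% of all genes, and 1 member, Becn1 (3.45%), had an unadjusted p under 0.05, against 6.89%. The differences ran from -0.37 to 0.29, and the 95% interval lay within 1.5-fold for 22 of the 29, reaching beyond it for 7. With Wt and SKM-Tg fitted alone, the interval lay within 1.5-fold for 18 and held 0 for all 29. In that fit 0 members had an unadjusted limma p under 0.05, against 2.85% of all genes. For 0 members did all SKM-Tg arrays lie above or below all Wt arrays, which held for 1.18% and 2.79% of all genes. With quantile and cyclic loess normalization, 16 and 15 of the 29 members lay below 0. The other 13 and 14 lay above 0, where 46.3% and 49.1% of all genes did.

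The values of SKM-Tg minus Wt turned on single Wt arrays. With array Wt 2 left out the differences ran from -0.29 to 0.13, 22 of the 29 lay nearer 0 and 10 changed sign. The counts stayed at 19 below 0 and 10 above, where 41.1% of all genes lay above. The median was -0.035 beside -0.031 for all genes. Of the 7 conjugation genes, 6 then lay below 0, against 4 with all arrays. In that setting 0 members had an unadjusted p under 0.05, against 5.6% of all genes. Without Wt 3 there were 12, against 30.8% of all genes, and 0 members were called, against 0.288% of all genes. With array weights estimated gene by gene, 5 members passed, against 14.3% of all genes. They were Atg13, Atg14, Atg7 and Pik3r4, with lower signal in SKM-Tg, and Becn1, with higher. The weights were 7.21 for Wt 1, 0.147 for Wt 2 and 0.230 for Wt 3, so the mean of Wt rested mostly on Wt 1 in that fit.

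**Figure D2:**
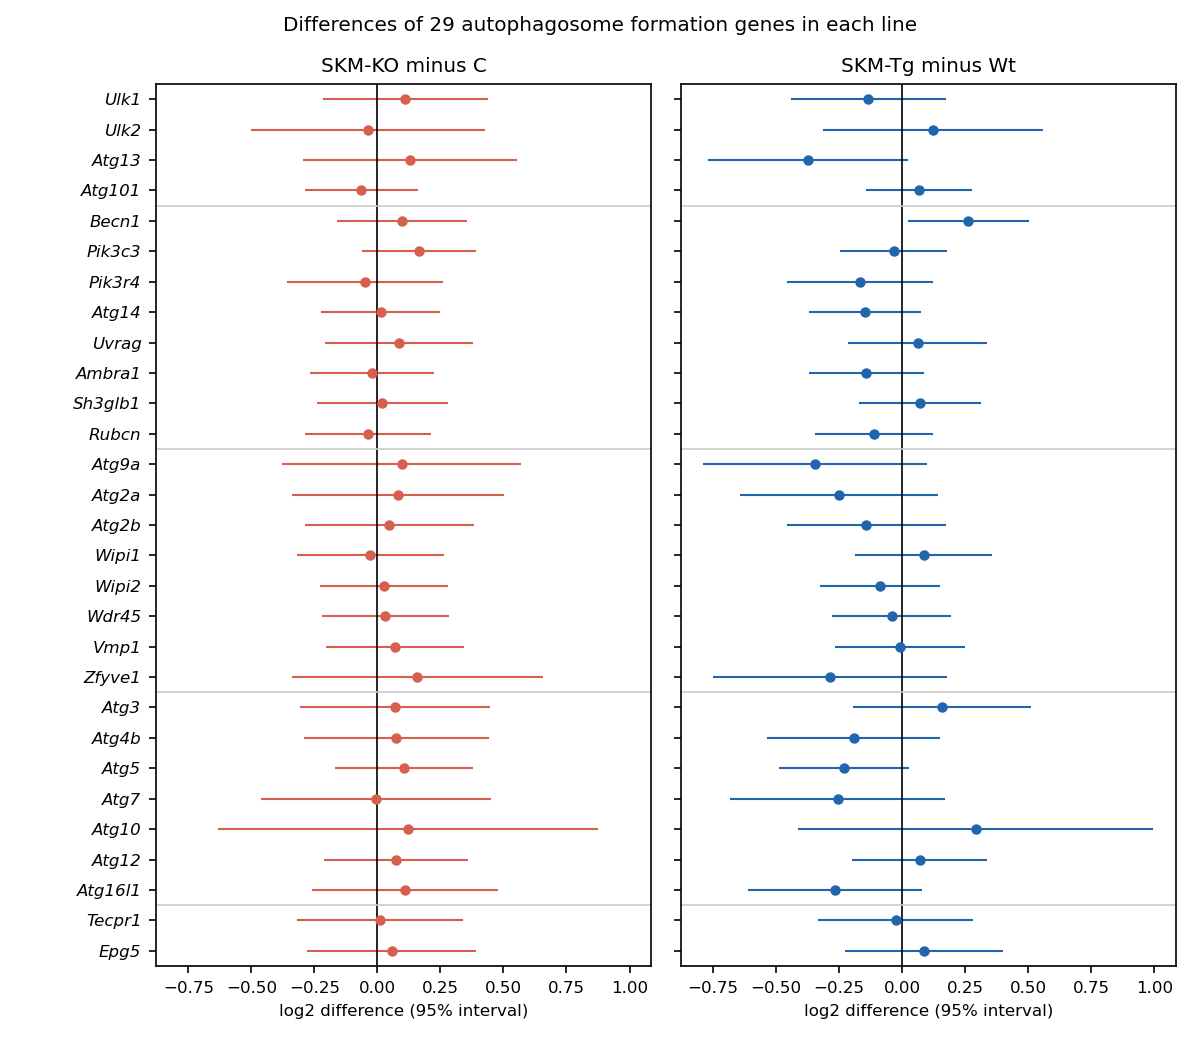
Log2 differences of the 29 tested genes in SKM-KO minus C (left) and SKM-Tg minus Wt (right), with 95% intervals of the joint fit over 13 arrays; grey lines part the complexes. All intervals on the left hold 0, and on the right all but that of Becn1 do. With Wt and SKM-Tg fitted alone, that of Becn1 holds 0 too.

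The ULK complex joins the kinases ULK1 and ULK2 with the scaffold ATG13, its partner ATG101 and RB1CC1, known as FIP200. Ulk1 gave log2 signals of 10.08, 10.02 and 10.36 in C and 10.37, 10.27 and 10.15 in SKM-KO, which overlap, and the difference was 0.11 (SE 0.15, limma adjusted p 1). In Wt it gave 10.67, 10.82 and 10.40 and in SKM-Tg 10.19, 10.62, 10.69 and 10.49, a difference of -0.13 (SE 0.14, adjusted p 0.763). SKM-Tg 1 was the lowest of these and the other SKM-Tg arrays lay within the range of Wt.

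Atg13, the subunit that mTORC1 and AMPK signals reach together with ULK1, had the largest difference of the 29 members in SKM-Tg. It gave 7.94, 8.36 and 7.65 in Wt and 7.25, 7.57, 7.93 and 7.69 in SKM-Tg, a difference of -0.37 (SE 0.18, unadjusted p 0.0632, adjusted p 0.702). Wt 2 was the highest of all arrays; without it the difference was -0.18, and the groups overlapped with or without it. In C it gave 7.34, 7.68 and 7.66 and in SKM-KO 7.67, 7.55 and 7.85, a difference of 0.13 (SE 0.20, adjusted p 1). C 1 lay below the other arrays of that line, and without it the difference was 0.018.

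Ulk2 stood at -0.04 in SKM-KO minus C and 0.12 in SKM-Tg minus Wt, and at -0.21 in the latter without Wt 2, where its signal was 7.50 against 8.36 and 8.60 in the other Wt arrays. Atg101, which stabilises ATG13, stood at -0.06 and 0.07. The dim Rb1cc1 probe set differed by 0.18 in SKM-KO minus C and 0.16 in SKM-Tg minus Wt; 2 further probe sets carry its symbol with another and were not used.

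The class III PI3 kinase works in complexes of the lipid kinase PIK3C3, the regulatory subunit PIK3R4 and beclin 1, with ATG14 for vesicle formation or UVRAG for endosome traffic. Pik3c3 had the smallest p-value of the 29 members in SKM-KO minus C. Its signals were 5.91, 5.78 and 5.87 in C and 5.96, 6.13 and 5.97 in SKM-KO, and all SKM-KO arrays lay above all C arrays. The difference was 0.16 (SE 0.10, 95% interval -0.06 to 0.39, unadjusted p 0.142, adjusted p 1). Pik3c3 and Atg9a were the 2 members whose SKM-KO arrays all lay above C, against 4.66% of all genes, and 0 members lay wholly below, against 2.83%. In Wt Pik3c3 gave 5.96, 6.12 and 6.00 and in SKM-Tg 5.88, 6.06, 6.16 and 5.87, a difference of -0.03 (SE 0.10, adjusted p 0.914).

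Becn1 encodes beclin 1, the subunit through which BCL2 proteins restrain the kinase complex. It gave 9.29, 8.97 and 9.48 in Wt and 9.58, 9.48, 9.42 and 9.56 in SKM-Tg. The SKM-Tg arrays lay close together, the lower mean of Wt came mostly from Wt 2, and Wt 3 lay within the range of SKM-Tg. The difference was 0.26 (SE 0.11, unadjusted p 0.0353, adjusted p 0.702), and 0.12 without Wt 2 (adjusted p 0.974). With Wt and SKM-Tg fitted alone the unadjusted limma p was 0.101. With the gene-by-gene array weights, which put the mean of Wt mostly on Wt 1, the difference was 0.22 and passed (adjusted p 0.0379). It passed in no other setting tried. Its 3 probe sets stood at 0.26, 0.12 and 0.42. In C it gave 9.41, 9.48 and 9.47 and in SKM-KO 9.47, 9.57 and 9.60, which overlap, a difference of 0.10 (SE 0.12, adjusted p 1).

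The other subunits lay near 0 in SKM-KO minus C: Pik3r4 at -0.05, Atg14 at 0.01, Uvrag at 0.09, Ambra1, a beclin 1 partner, at -0.02, Sh3glb1, the membrane-bending protein BIF-1, at 0.02, and Rubcn, an inhibitor of the UVRAG complex, at -0.04. In SKM-Tg minus Wt they stood at -0.17 for Pik3r4, -0.15 for Atg14, 0.06 for Uvrag, -0.14 for Ambra1, 0.07 for Sh3glb1 and -0.11 for Rubcn. None passed in either line. Without Wt 2 Ambra1 stood at -0.0098 and Sh3glb1 at -0.08.

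Of the 8 members that bring membrane to the growing vesicle, 7 lay above 0 in SKM-KO and 7 below 0 in SKM-Tg, and none passed in either. Of all genes, 54% lay above 0 in SKM-KO and 62.2% below 0 in SKM-Tg. In SKM-KO, 6 of the 8 lay above 0 with the mean of probe sets, and likewise without C 1, C 2, SKM-KO 2 or SKM-KO 3. With quantile or cyclic loess normalization, and likewise without Wt 2, 5 of the 8 lay below 0 in SKM-Tg. Atg9a, the transmembrane protein whose vesicles seed the membrane, gave 8.63, 8.64 and 8.60 in C and 8.71, 8.78 and 8.67 in SKM-KO. The groups did not overlap, since the C arrays were nearly equal, and the difference was 0.10 (SE 0.22, adjusted p 1). In Wt it gave 9.28, 9.93 and 8.84 and in SKM-Tg 8.79, 9.04, 9.35 and 8.83. The Wt arrays spanned over 1 log2 unit and the difference of -0.35 (SE 0.20, adjusted p 0.702) was -0.06 without Wt 2. In each line, each SKM-KO or SKM-Tg array lay on 1 side of its control mean.

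Zfyve1 encodes DFCP1, a marker of the membrane platform on which autophagosomes form. It gave 7.82, 7.61 and 8.01 in C and 8.13, 7.86 and 7.93 in SKM-KO, a difference of 0.16 (SE 0.23, adjusted p 1) with overlapping groups. It gave 8.42, 9.04 and 8.12 in Wt and 7.87, 8.11, 8.63 and 8.34 in SKM-Tg, a difference of -0.29 (SE 0.21, adjusted p 0.704). Wt 2 was again the highest array, and without it the difference was -0.03.

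The lipid transfer genes Atg2a and Atg2b stood at 0.08 and 0.05 in SKM-KO minus C and at -0.25 and -0.14 in SKM-Tg minus Wt. Without Wt 2 the latter were -0.0039 and -0.29, nearer 0 for Atg2a and farther from it for Atg2b. The phosphoinositide-binding WIPI genes Wipi1, Wipi2 and Wdr45 stood at -0.03, 0.03 and 0.03 in SKM-KO and at 0.08, -0.09 and -0.04 in SKM-Tg. Vmp1, an endoplasmic reticulum scramblase, stood at 0.07 and -0.0089.

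The conjugation enzymes form a pathway like that of ubiquitin: ATG7 activates, ATG3 and ATG10 transfer, the ATG12, ATG5 and ATG16L1 complex directs LC3 to the membrane, and ATG4 proteases process it. Atg5 had the smallest p-value of the 29 members for a difference between the lines. It gave 6.14, 6.27 and 6.27 in C and 6.27, 6.41 and 6.33 in SKM-KO, a difference of 0.11 (SE 0.13, adjusted p 1), and the lowest SKM-KO array met the upper C arrays. It gave 6.36, 6.63 and 6.27 in Wt and 5.97, 6.10, 6.37 and 6.32 in SKM-Tg, a difference of -0.23 (SE 0.12, unadjusted p 0.075, adjusted p 0.702). SKM-Tg 1 and SKM-Tg 2 lay below all Wt arrays and the other SKM-Tg arrays among them; without Wt 2 the difference was -0.13.

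Atg7 gave 6.73, 6.74 and 6.80 in C and 6.80, 6.67 and 6.79 in SKM-KO, a difference of -0.0049 (SE 0.21, adjusted p 1). It gave 7.22, 7.71 and 6.76 in Wt and 6.74, 6.80, 7.40 and 6.96 in SKM-Tg, a difference of -0.26 (SE 0.20, adjusted p 0.710) that was -0.016 without Wt 2. The C and SKM-KO arrays lay within a narrow range, while the Wt and SKM-Tg arrays spread widely and overlapped, with Wt 2 and SKM-Tg 3 the highest of their groups.

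Atg16l1 gave 7.37, 7.61 and 7.58 in C and 7.58, 7.66 and 7.65 in SKM-KO, a difference of 0.11 (SE 0.17, adjusted p 1). It gave 7.69, 8.34 and 7.74 in Wt and 7.37, 7.69, 7.91 and 7.65 in SKM-Tg, a difference of -0.27 (SE 0.16, adjusted p 0.702), or -0.06 without Wt 2. In both lines the groups overlapped.

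Atg3, Atg4b and Atg12 stood at 0.07, 0.07 and 0.07 in SKM-KO minus C and at 0.16, -0.19 and 0.07 in SKM-Tg minus Wt; without Wt 2 the latter were -0.06, 0.025 and -0.07. Atg10, the enzyme that transfers ATG12, had the largest SE of the 29 members. It gave 6.65, 7.09 and 6.94 in C, 6.87, 7.14 and 7.04 in SKM-KO, 5.59, 4.90 and 6.73 in Wt and 6.51, 5.94, 5.75 and 5.94 in SKM-Tg. Its difference was 0.12 in SKM-KO (SE 0.35) and 0.29 in SKM-Tg (SE 0.33), and the latter was -0.13 without Wt 2. All arrays of C and SKM-KO but C 1 lay above all arrays of Wt and SKM-Tg. The dim Atg4c stood at -0.03 in SKM-KO and -0.13 in SKM-Tg.

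The tethering factors Tecpr1, which binds the ATG12 and ATG5 conjugate, and Epg5, which joins autophagosomes to late endosomes and lysosomes, stood at 0.01 and 0.06 in SKM-KO minus C and at -0.03 and 0.09 in SKM-Tg minus Wt.

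**Figure D3:**
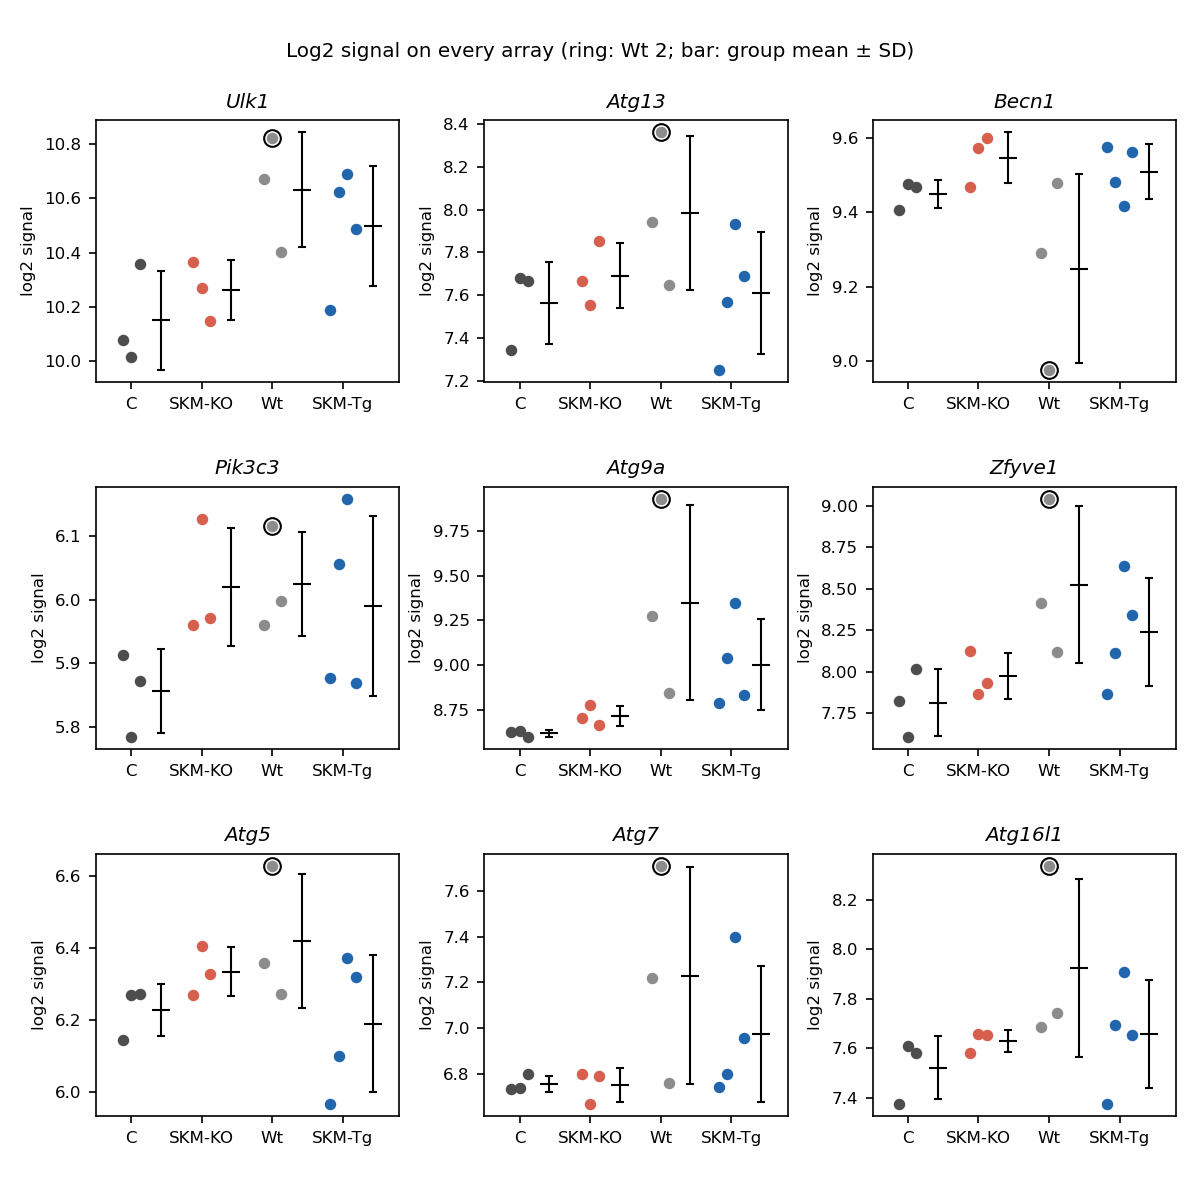
Log2 signal of 9 members on every array by group (C and SKM-KO, n = 3 each; Wt, n = 3; SKM-Tg, n = 4), with group mean ± SD as bars and Wt 2 ringed. Each panel has its own axis; Wt 2 is the highest Wt array in 8 panels and the lowest in that of Becn1.

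Several members were read by more than 1 probe set. Of 63 single-symbol probe sets of the members, 53 were bright enough to test, and 0 passed in either line when all probe sets were tested. For 15 genes with several such probe sets, these had the same sign for 10 in SKM-KO minus C, with Atg5, Atg7, Becn1, Sh3glb1 and Wipi2 differing, and for 13 in SKM-Tg minus Wt, with Atg12 and Wipi1 differing. The 2 probe sets of Atg13 stood at -0.37 and -0.39 in SKM-Tg minus Wt, and the 3 of Atg5 at -0.23, -0.26 and -0.10. All of these probe sets were read on the same arrays, Wt 2 included.

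**Figure D4:**
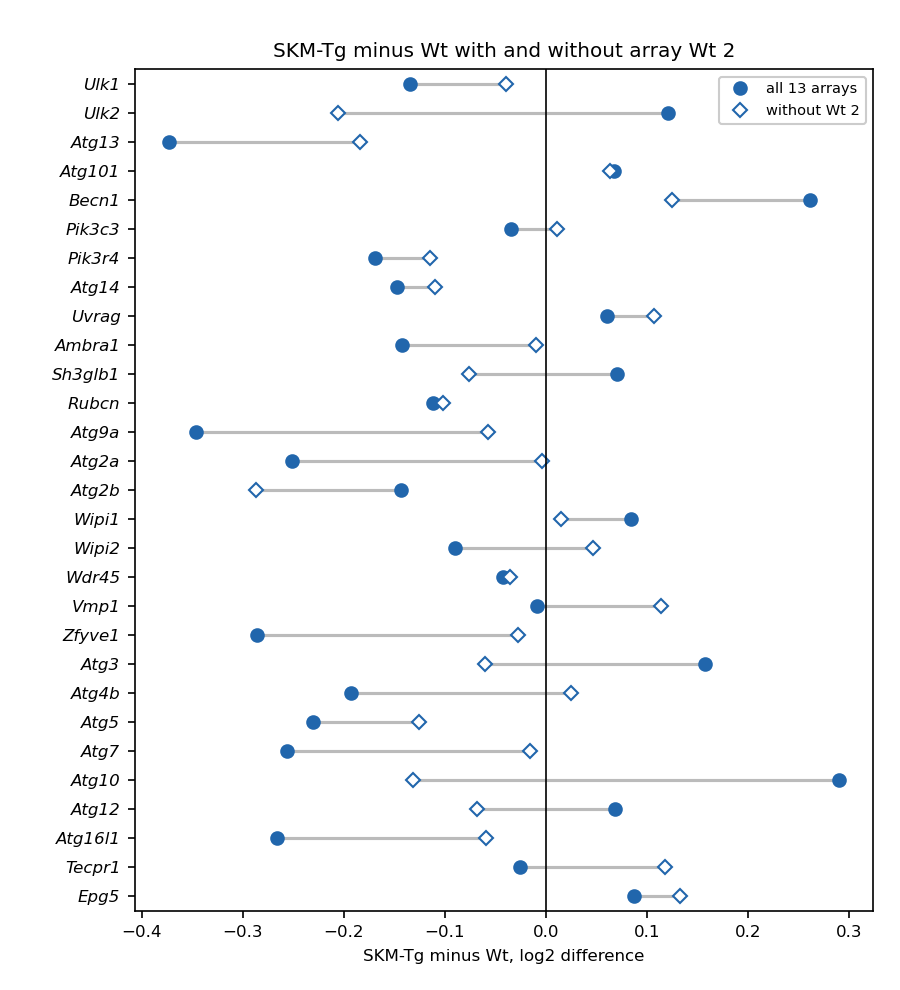
SKM-Tg minus Wt log2 difference of the 29 tested genes with all 13 arrays (filled circles) and without Wt 2 (open diamonds). Among the 22 genes nearer 0 without that array, Atg9a moves from -0.35 to -0.06 and Zfyve1 from -0.29 to -0.03. Atg10 crosses from 0.29 to -0.13, and Ulk2 crosses from 0.12 to -0.21, farther from 0.

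The effects in the lines were compared directly as SKM-Tg minus Wt less SKM-KO minus C. Limma called 0 of the 29 members, against 0.0192% of all genes, and 0 had an unadjusted p under 0.05, against 3.1%. Of the members 21 lay below 0 and 8 above, where 61.7% of all genes lay below and 38.3% above. Atg5 stood at -0.34 (SE 0.17, unadjusted p 0.0756) and Atg13 at -0.50 (SE 0.27, unadjusted p 0.0853), both with an adjusted p of 0.989, followed by Atg16l1 at -0.38, Atg9a at -0.44 and Zfyve1 at -0.44. There were 15 of 29 members (51.7%) above 0 in SKM-KO and below 0 in SKM-Tg, against 34.3% of all genes. Among them were 7 of the 8 membrane genes. In the other complexes they were 2 of 4 ULK, 2 of 8 class III PI3 kinase, 3 of 7 conjugation and 1 of 2 tethering genes. Which of these signs hold depends on Wt 2, without which 10 members changed sign in SKM-Tg minus Wt.

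The median size of the members' difference was 0.26 between the controls Wt and C, against 0.07 in SKM-KO minus C and 0.14 in SKM-Tg minus Wt. Over all genes tested it was 0.23, 0.06 and 0.13, so the order was that of the whole array. Between the controls 0 members passed (0.00961% of all genes did). Of the 29 members, 22 lay higher in Wt and 7 lower, where 58.8% of all genes lay higher and 41.2% lower. At an unadjusted limma p under 0.05 there were 13 of the 29 members (44.8%), 8 higher and 5 lower in Wt, against 27.8% of all genes. The higher ones included Atg9a at 0.73 (SE 0.22), Zfyve1 at 0.71 (SE 0.23), Atg2a at 0.59 and Ulk1 at 0.48, and the lower ones Atg10 at -1.15 (SE 0.35), Ulk2 at -0.56 and Atg3 at -0.41; the smallest adjusted p was 0.145. Without Wt 3, 16 members passed, where 39.6% of all genes did, and 16 passed with the gene-by-gene weights, where 55.6% did. Those weights put the mean of Wt mostly on Wt 1. All Wt arrays lay above all C arrays for 9 members, against 15.4% of all genes, and below for 2, against 8.51%. With C and Wt fitted alone, the unadjusted limma count was 6 (20.7%), against 13.4% of all genes. In the joint fit without Wt 2 the unadjusted count was 6 (20.7%), against 9.37% of all genes. There Atg9a stood at 0.44, Zfyve1 at 0.45, Ulk1 at 0.39 and Atg10 at -0.73. Wt minus C shares its arrays with both comparisons above, so these values are no separate support for them, and line and any unlabelled batch cannot be told apart.

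Other genes of the pathway gave 0 calls in both lines, against 0.00961% of all genes in SKM-KO and 0% in SKM-Tg. For the counts of signs below, 54% of all genes tested lay above 0 in SKM-KO and 37.8% in SKM-Tg. Among the Atg8 proteins, which coat the vesicle, 2 of 4 tested lay above 0 in SKM-KO and 0 of 4 in SKM-Tg, with Map1lc3a at -0.12, Gabarapl1 at -0.11 and Gabarap at -0.10 in the latter. Among receptors, which bind cargo, 6 of 9 lay above 0 in each line; in SKM-Tg the mitophagy receptor Bnip3l stood at 0.33 (SE 0.12, adjusted p 0.702), the ferritin receptor Ncoa4 at -0.20 and Fundc1 at 0.22. Among regulators upstream of ULK, 8 of 14 lay above 0 in SKM-KO, with the stress-induced Sesn1 at 0.49 (SE 0.24), and 6 of 14 in SKM-Tg, with the kinase Mtor at -0.31 and its partner Rptor at -0.34.

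Among genes of fusion with the lysosome, 8 of 11 lay above 0 in SKM-KO and 5 of 11 in SKM-Tg, where Snap29 and Stx17, SNARE proteins of the fusion step, stood at -0.21 and 0.19 and the adaptor Plekhm1 at -0.28. Among transcription factors of autophagy genes, 6 of 7 lay above 0 in SKM-KO, with Foxo3 at 0.22 (SE 0.15), and 3 of 7 in SKM-Tg, with Foxo4 at 0.37 (SE 0.11, unadjusted p 0.00589, adjusted p 0.691) and Mitf at -0.21. The median of the members (0.070 in SKM-KO and -0.09 in SKM-Tg) lay inside the range of the medians of these 5 lists in SKM-KO, -0.016 to 0.096, and in SKM-Tg, -0.10 to 0.049.

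Markers of other cell types moved with some arrays, as summed signals on the log2 scale. Macrophage markers (10 of 12 above the minimum, with Adgre1 and Cd14 under it) ran from 9.73 to 10.09 in C, from 9.99 to 10.26 in SKM-KO, from 9.79 to 10.23 in Wt and from 9.38 to 10.18 in SKM-Tg, and fibroblast and matrix markers (8 of 10) from 12.66 to 13.10 and from 12.51 to 12.93, with SKM-Tg 1 and SKM-Tg 2 lowest for both. Endothelial markers (10 of 10) ran from 12.71 to 12.82 in Wt and from 12.46 to 12.72 in SKM-Tg. These 2 arrays were also the lowest SKM-Tg arrays for 13 of the 29 members (44.8%), Atg5, Atg7, Atg13 and Zfyve1 among them, against 30.2% of all genes tested. Nerve and Schwann cell markers (4 of 5 with a probe set, 8 listed) ran from 9.26 to 9.39 in C and from 9.44 to 9.96 in SKM-KO. Fat cell markers (5 of 6 with a probe set, 9 listed) ran from 11.96 to 12.25 in C and from 11.92 to 12.52 in SKM-KO. In Wt they ran from 11.95 to 12.32 and in SKM-Tg from 12.18 to 12.92. Only SKM-KO 2 and SKM-Tg 2 lay above all arrays of their control. Liver plasma protein markers (6 of 7) ran from 7.59 to 7.91 in SKM-KO and from 7.96 to 9.82 in C. The sums add linear signals, so the brightest markers weigh most. Gene by gene, 10 of 10 macrophage markers lay above 0 in SKM-KO minus C (median 0.20), where 54% of all genes did. Below 0 in SKM-Tg minus Wt were 9 of 10 macrophage and 9 of 10 endothelial markers (medians -0.27 and -0.31), and 62.2% of all genes. Of the 5 fat cell markers, 4 lay above 0 there (median 0.86) and 1 below. The part of the markers in the differences of the members was not tested.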

How the data were processed

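The authors deposited RMA values on the log2 scale for 45141 probe sets, per the submitters' processing notes; the software version, scan dates and batches are not given in the sources used here. RMA corrects background, normalizes arrays to each other and summarises probes, so a shift common to all genes would not be seen. RNA was amplified from 25 ng per sample, per the labels' protocols. Of 45037 non-control probe sets, 28898 carried a single symbol in the platform annotation, 551 had several and 15588 had none here; the last 2 kinds were not used. A gene was read from its brightest probe set by the mean of 13 arrays, and entered the test if that mean was at least 4.90, the median over non-control probe sets.

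Limma 3.58.1, under R 4.3.3, fitted a mean for each of the 4 groups over all arrays, with moderated variances. Tests were two-sided with Benjamini-Hochberg adjustment over 10411 genes and a threshold of 0.05. Errors are SE of the fit unless marked SD. P-values measure the spread between animals of this series; 3 or 4 arrays per group limit the precision. The fit was tested on simulated data that had the same spread in every group and no array apart. That test therefore does not cover the unequal spread of the groups or an array such as Wt 2. The members and lists were chosen with earlier results of these data known. Every array's value is given for the members with the 5 smallest p-values in either line or in the difference of effects, and for Ulk1, Becn1, Atg5 and Atg7; the arrays of Ulk2 and Atg10 were added after their values were seen. Other lists name up to 3 genes by p. Array weights by gene, and leaving out Wt 2 and SKM-Tg 3 together, were added after seeing the data.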

Additional observations from a re-analysis of the deposited data

Results flagged for a closer look

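In SKM-Tg, the group with 4 arrays, 2 of 31 members had an array far from the rest, SKM-Tg 3 in both. For Rb1cc1 the gap to the nearest array took 0.908 of the group's range, and for Wipi2 0.877, both above Dixon's critical value at 95% for that number of samples. Such gaps occurred for 5.0% of all genes tested, and chance gives about 1 in 20 groups. Rb1cc1 was under the signal minimum and is not among the genes tested. Of the 29 members tested, Wipi2 alone had such a gap.

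For Atg9a, Atg5 and Atg16l1, every SKM-KO array lay above the mean of C and every SKM-Tg array below the mean of Wt. The differences of the effects were -0.44, -0.34 and -0.38, and the test of that difference gave limma adjusted p-values of 0.989 for each. This pattern or its reverse held for 3 of 29 members and for 6.46% of all genes tested. The mean of Wt includes Wt 2.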

How the results depend on the processing

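Under every setting tried, 0 members were called in SKM-KO minus C, where 0.00585% to 0.0213% of all genes were, and in the difference of effects, where 0.00961% to 0.0213% were, or 2.22% with gene-by-gene array weights. In SKM-Tg minus Wt 0 were called except with those weights, which called 5 (Atg7, Atg13, Atg14, Becn1 and Pik3r4) where 14.3% of all genes passed. The weights put the mean of Wt mostly on Wt 1, at 7.21. In Wt minus C those weights called 16 (55.6% of all genes), and leaving out single arrays called 0 to 16, the highest without Wt 3 (39.6% of all genes). The default array weights did not converge and are not given. With single arrays left out, the median over members lay between 0.018 (without C 1) and 0.082 for SKM-KO against C and between -0.14 and -0.032 for SKM-Tg against Wt. Without Wt 2 and SKM-Tg 3, 0 members were called. In SKM-Tg minus Wt 22 members then lay below 0 and 7 above, where 35.2% of all genes lay above 0. The median over members was -0.081 in that setting. Among the 9 members chosen by p-value or by name, signs turned for 2, both near 0: Pik3c3 in SKM-Tg minus Wt at 0.013 with cyclic loess normalization and 0.032 with gene-by-gene weights, and from -0.091 to 0.011 with single arrays left out; Atg7 in SKM-KO minus C at 0.019 with the mean of probe sets, and from -0.028 to 0.037. The cause was not tested. Median centring, quantile normalization, the filters, trended moderation and separate fits changed no call of the members. No paired analysis was possible because the labels give animal numbers that are not shared between groups. Members near the signal minimum can hide changes that brighter ones would show.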
